A study of Mus musculus with 6 samples.

Results

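Stromal cells of the mouse posterior eye that carry transcripts of Wnt6, Wnt10a or Edn3 were examined in single-cell RNA sequencing data, and 806 of the 1266 cells held Edn3 with neither Wnt gene. A barcode was a member when it held at least 5 unique molecular identifiers (UMIs, each marking 1 captured transcript) of Dcn, which encodes the matrix proteoglycan decorin, and at least 2 UMIs of Wnt6, Wnt10a and Edn3 together. Members also had at most 1 UMI of Krt5 and Krt14, keratins of surface epithelium, and none of Pecam1, an endothelial adhesion molecule. Only barcodes of 1000 UMIs or more, from 500 genes or more, with no more than 20% of UMIs from mitochondrial genes, were considered, and the rule found 1266 members among 55353 such barcodes and 66434 barcodes in all. Members were thus chosen by the measured counts of these 7 genes, which are given below as a description only.

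Mice in the tropicamide group received 6 drops of this muscarinic receptor antagonist onto the eye at intervals of 10 min and were left for 1 h. Mice in the saline group were given saline at the same interval, and neither a number of drops nor a wait is stated for them. Each group had 12 mice, whose right eyes were combined 4 to a library, and 3 tropicamide pools stood against 3 saline pools. The study asked how the ciliary muscle bears on myopia, and the tissue was the eye cup after removal of cornea, lens, iris and ciliary body. The labels state no strain, sex or age, and nothing pairs a tropicamide pool with a saline pool.

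Wnt6 and Wnt10a are secreted ligands of the Wnt family, which bind Frizzled receptors with the co-receptors Lrp5 and Lrp6 and, through beta-catenin, let TCF/LEF factors switch on genes such as Axin2 and Lef1. Edn3 is a peptide of the endothelin family that acts on the receptor Ednrb and is needed by developing melanocytes and enteric neurons. Much of the connective tissue of the eye descends from the periocular mesenchyme, which is marked by Foxc1.

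The promoter sequences of the genes that define the members are shown because they are the genes on which every count below rests. Of the 3 genes, 2 had an entry in the RefSeq table, each a window of 300 bases around the start of the gene in build GRCm38.p6, and Wnt10a is named only. Capitals mark CTTTG or its reverse complement CAAAG, the core of the sequence that TCF/LEF factors recognise, searched on both strands.
Edn3, chr2:174760369-174760668, plus strand: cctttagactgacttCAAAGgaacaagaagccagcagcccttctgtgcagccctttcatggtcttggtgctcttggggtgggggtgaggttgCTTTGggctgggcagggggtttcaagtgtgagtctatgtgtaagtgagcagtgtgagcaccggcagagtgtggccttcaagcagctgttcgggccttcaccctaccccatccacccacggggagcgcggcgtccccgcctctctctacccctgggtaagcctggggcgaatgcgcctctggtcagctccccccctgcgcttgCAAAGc
Wnt6, chr1:74771642-74771941, plus strand: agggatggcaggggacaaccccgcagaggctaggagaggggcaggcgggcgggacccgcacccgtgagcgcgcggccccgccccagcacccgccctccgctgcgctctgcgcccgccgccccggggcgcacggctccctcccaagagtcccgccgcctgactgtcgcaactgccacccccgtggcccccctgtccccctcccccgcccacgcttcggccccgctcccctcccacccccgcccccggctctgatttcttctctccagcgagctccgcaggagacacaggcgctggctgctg
The Edn3 window held 3 matches and the Wnt6 window 0, and 54.0% of the 27025 promoters in the table (1 per gene) held at least 1. A match is a string of letters and not a shown binding site. The Wnt6 window was 76.7% G and C, and the Edn3 window 61.0%. Wnt6 and Wnt10a are neighbours on chromosome 1 in that annotation, with 0 protein-coding genes between them.

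The 6 libraries held 30761887 to 49477707 UMIs, and the members of a pool 927770 to 3424026. Members numbered 345, 371 and 156 in tropicamide pools, against 91, 126 and 177 in saline pools. Their median depth was 8205, 8424 and 9939 UMIs in tropicamide pools, against 9475, 9393 and 8091 in saline pools, so depth overlapped between the groups. The comparison cells were 2048 other Dcn-positive stromal barcodes that met the same limits and had none of the 3 genes, with a median of 13324 UMIs against 8607 in members. Across libraries 522 barcode sequences occurred more than once, of which 0 belonged to members of 2 pools.

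The members did not form 1 homogeneous population, and the label fitted the 34.9% of them that held Edn3 together with a Wnt gene. Edn3 was detected in 98.6% of members (95% exact binomial interval 97.8 to 99.2%, counting error only), Wnt6 in 33.6% (31.0 to 36.2%) and Wnt10a in 28.3% (25.8 to 30.8%). Edn3 with at least 1 of the Wnt genes was found in 442 members, Edn3 alone in 806, and a Wnt gene without Edn3 in 18. Over all members, Edn3 stood at 1695 to 2295 CPM and Dcn at 10959 to 13560 CPM across the 6 pools. The Wnt genes came together: 323 of the 358 members with Wnt10a, 90.2%, also had Wnt6. The 460 members with a UMI of Wnt6 or Wnt10a are called Wnt-positive and the 806 others Edn3-only. Their median depths were 9308 and 8210 UMIs, and their medians of Edn3 were 27.5 and 8 UMIs.

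Barcodes of other cell types rarely held such counts. At least 2 UMIs of the 3 genes were found in 0.191% of 35088 rod barcodes without Dcn, at a median of 2488 UMIs, and in 3.25% of 2926 barcodes without Dcn that had at least 5000 UMIs, at a median of 6542. The share was 35.4% of the 3581 Dcn-positive stromal barcodes, at a median of 11422 UMIs. Just inside the limit lay 88 members with 2 UMIs of the 3 genes, whose summed level of Ptn was 713 CPM (UMIs scaled to a common total per pool). Just outside lay 267 barcodes with 1 UMI, with Ptn at 254 CPM, against 6964 CPM over all members.

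All levels that follow are CPM of the summed UMIs of a pool, as the median of 6 pools with the range in parentheses, and no test was run on them because the rule came from the same cells. Wnt-positive members carried the markers of the label. Ptn, a secreted heparin-binding growth factor, stood at 16292 CPM (15561 to 19068) in Wnt-positive members, 1217 (475 to 1777) in Edn3-only members and 208 (139 to 266) in other Dcn-positive cells. Schip1, which encodes a cytoskeletal partner of schwannomin, stood at 3320 CPM (2789 to 3779) in Wnt-positive members. It stood at 103 (58.2 to 297) in Edn3-only members, a median below the 126 (83.5 to 190) of other Dcn-positive cells. Both were far higher in Wnt-positive members of every pool, and Schip1 in Edn3-only members overlapped the range of the other cells.

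Edn3-only members instead held Smoc1 and Angpt1, and Myoc and Chil1, more often than other Dcn-positive cells, and Pi16 and Ebf2 less often. At least 2 UMIs of Smoc1 and Angpt1, a matricellular protein and the ligand of the Tie2 receptor, were found in 611 of 806 Edn3-only members, 67 of 460 Wnt-positive members and 269 of 2048 other Dcn-positive cells. At least 2 UMIs of Myoc and Chil1 together, both highly expressed in trabecular meshwork, were found in 276 Edn3-only members, 25 Wnt-positive members and 471 other Dcn-positive cells. Pi16 and Ebf2, markers of adventitial fibroblasts, reached 2 UMIs in 288 Edn3-only members (35.7%), 64 Wnt-positive members (13.9%) and 1666 other Dcn-positive cells (81.3%). Of 10 adventitial fibroblast markers, 10 were lower and 0 higher in Edn3-only members than in other Dcn-positive cells in all 6 pools. Myoc stood at 1509 CPM (804 to 1852) in Edn3-only members and 52.6 (25.2 to 206) in Wnt-positive members, and Chil1 at 768 (180 to 1120) in Edn3-only and 4.64 (1.22 to 145) in Wnt-positive members. The trabecular meshwork markers did not move as one. Of 12, 4 were higher and 5 lower in Edn3-only members than in other Dcn-positive cells in all 6 pools. The shares over 21688 genes were 12.7% and 8.95%. Myoc and Chil1 themselves were among the 4 higher ones. Among the lower ones, Angptl7 stood at 63.1 CPM in Edn3-only members and 1270 CPM in other Dcn-positive cells, and Tmeff2 at 18.1 CPM in Edn3-only members and 137 CPM in other Dcn-positive cells.

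**Figure D1:**
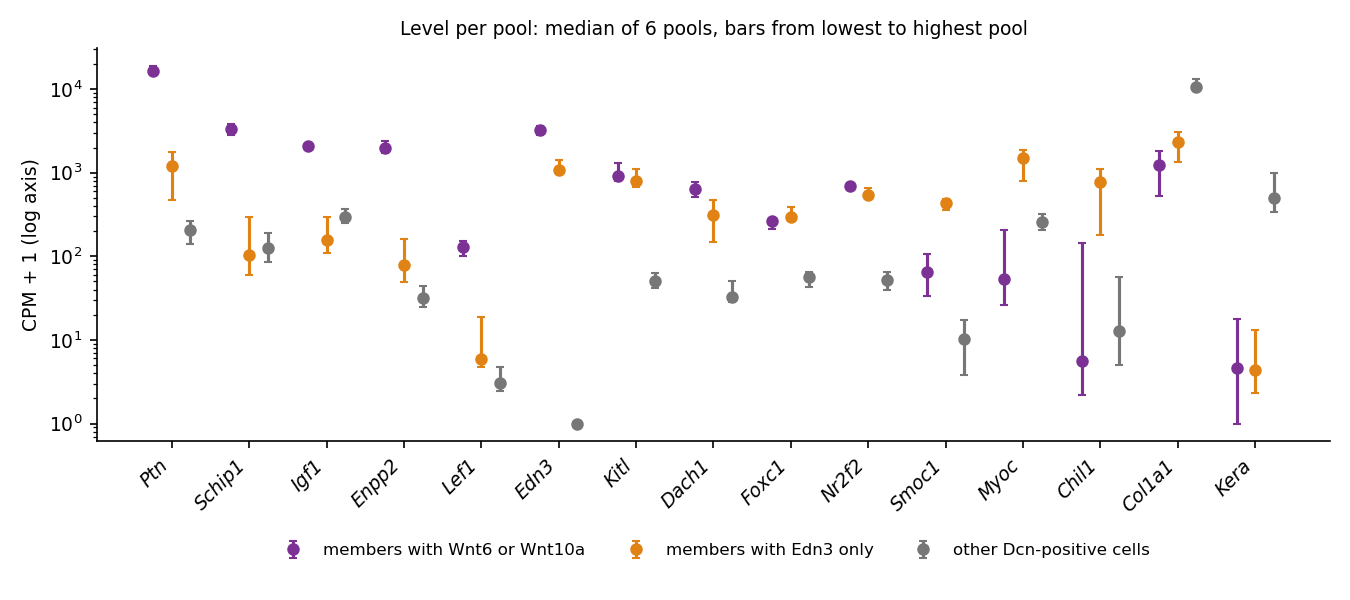
Level of 15 genes in Wnt-positive members, Edn3-only members and other Dcn-positive cells, on a log axis of CPM plus 1; points are medians of 6 pools and bars run from the lowest to the highest pool. Ptn, Schip1, Igf1, Enpp2 and Lef1 were highest in Wnt-positive members, Kitl, Foxc1 and Nr2f2 were high in both kinds of members, and Smoc1, Myoc and Chil1 were high in Edn3-only members.

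Among Wnt ligands, Wnt6 stood at 347 CPM (259 to 393) and Wnt10a at 398 (355 to 422) in Wnt-positive members, 2 values the rule sets. Wnt5a, a ligand that mostly signals without beta-catenin, stood at 325 CPM (258 to 396) in Wnt-positive members, 201 (170 to 307) in Edn3-only members and 127 (85.5 to 152) in other Dcn-positive cells, and Wnt5b at 60.3, 11.4 and 5.48 CPM. Wnt2 ran the other way, at 21.7 CPM (13.1 to 26.0) in all members and 116 (105 to 131) in other Dcn-positive cells. Rspo2, an R-spondin that strengthens Wnt signalling, stood at 81.5 CPM (63.0 to 176) in Wnt-positive members and 22.1 (15.7 to 29.996) in Edn3-only members, while Rspo3 stood at 16.0 (7.34 to 62.3) in Wnt-positive and 40.1 (24.6 to 71.6) in Edn3-only members, and both were at about 2 CPM or less in other Dcn-positive cells. Lef1, a TCF/LEF factor and itself a Wnt target, stood at 129 CPM (99.1 to 151) in Wnt-positive members, 4.87 (3.81 to 17.7) in Edn3-only members and 2.01 (1.44 to 3.70) in other cells. Notum, an enzyme that inactivates Wnt proteins, stood at 65.0 (48.9 to 114), 0.23 (0 to 7.86) and 1.93 (1.44 to 3.63) CPM in the same order. Axin2, the usual readout of the pathway, stood at 29.7 CPM (22.02 to 42.1) in Wnt-positive members, 9.92 (3.93 to 24.5) in Edn3-only members and 23.5 (20.2 to 33.9) in other cells.

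Among receptors, Ror1, which binds Wnt5a, stood at 634 CPM (546 to 690) in Edn3-only members, 415 (371 to 509) in Wnt-positive members and 146 (136 to 182) in other Dcn-positive cells. Fzd1 stood at 107 CPM (68.6 to 115) in Edn3-only members and 27.6 (8.42 to 40.3) in Wnt-positive members, and Fzd2 at 63.4 (52.999 to 107) in Edn3-only and 117 (80.1 to 151) in Wnt-positive members.

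Of 11 endothelin and melanocyte factors other than Edn3, 3 were higher in both kinds of members than in other Dcn-positive cells in all 6 pools, against 5.48% of 21688 genes: Kitl, Hgf and Ece1. Kitl, the ligand of the melanocyte receptor Kit, stood at 901 CPM (785 to 1304) in Wnt-positive members, 805 (676 to 1106) in Edn3-only members and 50.2 (41.3 to 61.3) in other Dcn-positive cells. Hgf, hepatocyte growth factor, stood at 106 CPM (84.4 to 122), 34.3 (31.7 to 41.9) and 9.001 (3.26 to 22.2) in the same order. Ece1, the protease that makes active endothelins, stood at 149 CPM (88.1 to 198) in Wnt-positive members and 336 (287 to 360) in Edn3-only members. Ednrb, the receptor of Edn3, was near 0 in members, at 3.24 CPM (0 to 6.13), and stood at 15.3 (10.1 to 23.1) in other Dcn-positive cells, while Ednra stood at 72.0 (61.5 to 78.5) in members and 27.3 (19.998 to 34.4) in the other cells. Igf1, insulin-like growth factor, stood at 2071 CPM (1940 to 2231) in Wnt-positive members, 157 (108 to 292) in Edn3-only members and 293 (249 to 368) in other cells, and Enpp2, the enzyme that makes lysophosphatidic acid, at 1997 (1707 to 2370), 78.7 (48.3 to 159) and 30.7 (23.7 to 43.7).

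Of 49 transcription factors of periocular mesenchyme, 9 (18.4%) were higher in both kinds of members than in other Dcn-positive cells in all 6 pools. The share over 21688 genes was 5.48%. Lower in all 6 pools were 20 of the 49 in Wnt-positive members and 16 in Edn3-only members. Over the 21688 genes 2564 and 1940 were lower, in the same order. Foxc1 stood at 265 CPM (210 to 287) in Wnt-positive members, 296 (277 to 389) in Edn3-only members and 55.6 (42.2 to 63.5) in other Dcn-positive cells. Nr2f2, an orphan nuclear receptor, stood at 697 CPM (618 to 762) in Wnt-positive members, 541 (506 to 653) in Edn3-only members and 51.8 (39.1 to 64.8) in other Dcn-positive cells. Tfap2b and Lmx1b, both needed for the front of the eye, were highest in Wnt-positive members, at 408 and 97.5 CPM, against 82.1 and 29.7 CPM in Edn3-only members. Foxp2, Sox9 and Foxd1 were highest in Edn3-only members, at 466, 235 and 42.5 CPM, against 28.1, 69.3 and 0.797 CPM in Wnt-positive members, and Foxp2 stood at 243 CPM in other Dcn-positive cells. Aldh1a2, which makes retinoic acid, stood at 170 CPM (154 to 194) in Edn3-only members and 55.8 (45.4 to 71.9) in Wnt-positive members, and the receptor gene Rarb at 240 (196 to 363) in Edn3-only and 463 (398 to 529) in Wnt-positive members.

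The main fibrillar collagen genes were lower in members. Col1a1 stood at 2030 CPM (1267 to 2344) in members and 10598 (9415 to 13139) in other Dcn-positive cells, and Col1a2 and Col3a1 were lower in members of all 6 pools too. Col4a6, a basement membrane collagen chain, stood at 138 CPM (113 to 178) in members and 8.22 (3.25 to 12.2) in the others. By ratio, the genes furthest above the other Dcn-positive cells after the rule genes were Rit2, a small GTPase, Spp1, which encodes osteopontin, and Sorcs3, a sorting receptor. Rit2 stood at 226 CPM (184 to 343) in members against 1.08 (0.361 to 1.96) in other Dcn-positive cells, with the Wnt-positive members at 569 and the Edn3-only members at 13.3. Spp1 stood at 765 CPM (399 to 998) in members against 5.09 (1.996 to 85.7) in other Dcn-positive cells, with the Edn3-only members highest at 1094. Emcn and Rgs5, known from endothelium and pericytes, were at 236 and 562 CPM in Edn3-only members and 41.7 and 14.3 CPM in Wnt-positive members. At the other end stood Kera, the keratocyte proteoglycan keratocan, at 4.52 CPM (1.77 to 8.47) in members against 504 (334 to 983) in other Dcn-positive cells, and Angptl7 at 41.8 (6.85 to 74.1) in members against 1270 (925 to 2566) in the others. In all, 1152 of 21688 genes were higher in members of all 6 pools and 1022 lower, with at least 50 CPM on the higher side.

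The share of members was higher after tropicamide in the mean but the groups overlapped. Members made up 4.32, 3.16 and 1.501% of kept barcodes (those within the UMI, gene and mitochondrial limits) in the tropicamide pools, against 1.22, 1.47 and 1.92% in the saline pools. The means were 3.00% ± 1.42 in tropicamide pools and 1.54% ± 0.353 in saline pools (SD, n = 3 pools each; p = 0.2 by an exact permutation test, two-sided, of the logit shares, for which 0.1 is the smallest p). Of Dcn-positive stromal barcodes they made up 46.2, 38.6 and 28.5% in tropicamide pools, against 25.5, 37.6 and 27.9% in saline pools, with means of 37.8% ± 8.89 in tropicamide pools and 30.3% ± 6.42 in saline pools (SD, n = 3 pools each; exact permutation p = 0.2). Tropicamide pool 3 lay within the saline range by the first denominator. How much stroma each dissection recovered was not measured, so a share is not a number of cells in the eye. The labels' extraction text describes sorted bone cells, which are not this tissue, so whether these eye cells were sorted is not known. Wnt-positive cells made up 29.9, 34.5 and 43.6% of members in tropicamide pools, against 40.7, 35.7 and 44.6% in saline pools (exact permutation p = 0.4).

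**Figure D2:**
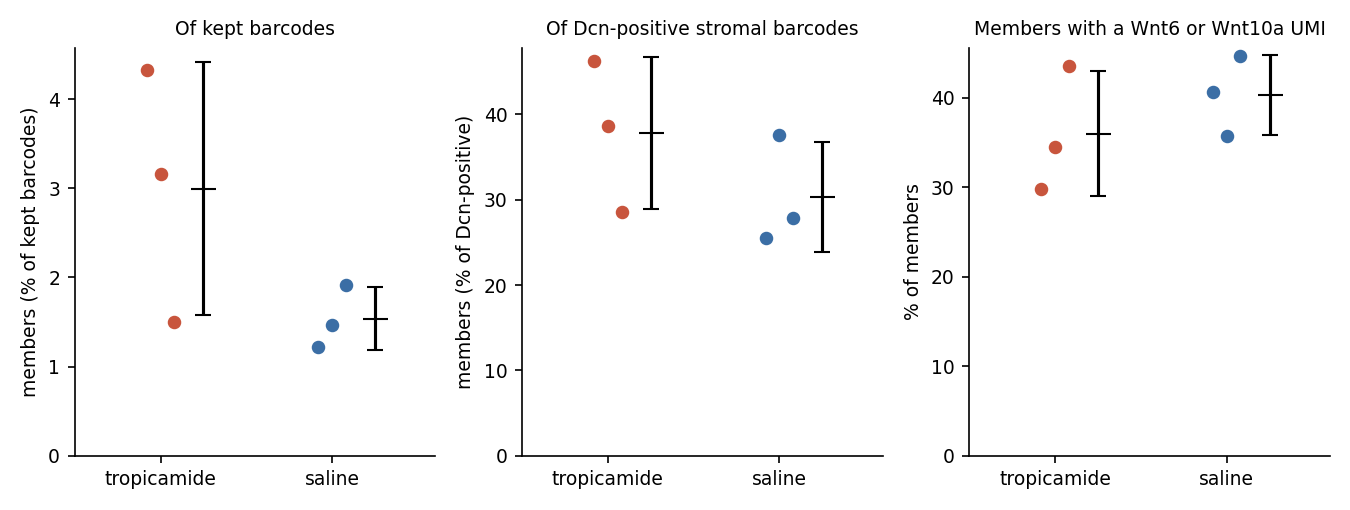
Share of members among kept barcodes, share of members among Dcn-positive stromal barcodes, and share of Wnt-positive cells among members, in percent, for each of 3 tropicamide and 3 saline pools; black bars are the mean with SD. Tropicamide pools 1 and 2 lie above all saline pools in the left panel and pool 3, at 1.501%, lies among them.

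Summed UMIs of the members of each pool were compared between tropicamide and saline with edgeR's quasi-likelihood test. Of 11278 genes tested, 3 were called at an adjusted p under 0.05, which is 0.0266%, while 948 (8.41%) had an unadjusted p under 0.05, and all 3 called genes were higher after tropicamide: Ptgds, Ttr and Rgr. Each is a known product of the retinal pigment epithelium (RPE), the pigmented layer behind the retina: Ptgds makes prostaglandin D2, Ttr carries retinol-binding protein and Rgr is an opsin of the visual cycle. Levels in the treatment comparison are CPM with trimmed-mean (TMM) scaling, whose factors were 0.985 to 1.02. Ptgds stood at 567, 319 and 568 CPM in the tropicamide pools, against 33.5, 20.4 and 34.6 CPM in the saline pools, which is 4.02 ± 0.27 on the log2 scale (SE; adjusted p = 0.000225 in edgeR). Ttr stood at 247, 271 and 189 CPM in tropicamide pools and 11.9, 16.3 and 35.9 CPM in saline pools (log2 fold change 3.35 ± 0.27, edgeR adjusted p = 0.000734), and Rgr at 51.5, 49.9 and 31.3 CPM in tropicamide pools and 2.16, 1.63 and 6.30 CPM in saline pools (3.56 ± 0.38, edgeR adjusted p = 0.00596). The groups did not overlap for any of them. Without saline pool 1, Rgr missed the threshold (log2 fold change 3.38, edgeR adjusted p = 0.0911). With doublet-scored barcodes left out, Ptgds (3.71, adjusted p = 0.137) and Rgr (2.54, adjusted p = 0.211) missed it in edgeR and Ttr did not. Without barcodes above the 95th percentile of UMIs, Ptgds was at 2.61 (edgeR adjusted p = 0.0112) and Rgr missed the threshold. In members with no UMI of Pax6, Ptgds was at 3.12 (edgeR adjusted p = 2.17e-05).

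The same 3 genes were measured in cells of other types. In rod barcodes Ptgds stood at 829 to 2223 CPM in tropicamide pools, against 138 to 431 CPM in saline pools, and Ttr at 797 to 2146 CPM in tropicamide pools and 109 to 432 CPM in saline pools. In other Dcn-positive cells Ptgds stood at 95.8 to 198 CPM in tropicamide pools and 17.1 to 94.8 CPM in saline pools. Ttr stood there at 120 to 205 CPM in tropicamide pools and 16.0 to 92.2 CPM in saline pools. Rgr in those cells stood at 21.1 to 32.0 CPM in tropicamide pools and 1.71 to 20.8 CPM in saline pools. In RPE barcodes Ptgds stood at 55161 to 63840 CPM in tropicamide pools, against 54491 to 69332 CPM in saline pools, and those ranges overlapped. The summed level of 8 RPE markers, of which 0 were at 0 in the members, was 685 to 949 CPM in members of tropicamide pools and 78.1 to 99.7 CPM in members of saline pools, but those 8 include the 3 called genes. The other 5 summed to 48.2 to 72.8 CPM in members of tropicamide pools and 23.7 to 40.3 CPM in members of saline pools. Of 21 marker lists, those of Muller glia (3782 to 5119 CPM in tropicamide pools, 2920 to 3711 CPM in saline pools), ciliary and iris epithelium (134 to 195 CPM in tropicamide pools, 89.5 to 109 CPM in saline pools) and melanocytes (65.6 to 83.5 CPM in tropicamide pools, 52.8 to 62.3 CPM in saline pools) also had summed levels in members that did not overlap. Most of the Muller glia sum was Apoe, at a median of 3077 CPM in members and 3867 CPM in Wnt-positive members. Mitf made up most of the melanocyte sum, at 38.7 CPM in members against 100 CPM in other Dcn-positive cells. The part that free RNA or cells of these types have in the 3 calls was not tested. Without barcodes scored as doublets, 1 gene (0.00928%) was called, Ttr (edgeR adjusted p = 0.0458). Among members with no UMI of Pax6 the count was 3 (0.0271%). The DESeq2 Wald test called 62 genes (0.55%), and edgeR without tropicamide pool 2 called 105 (0.904%), among them Col9a1 and Pax6. Pax6, a transcription factor of retina and ciliary epithelium, stood at 5.26 to 44.7 CPM in members of tropicamide pools and 1.08 to 5.64 CPM in members of saline pools.

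**Figure D3:**
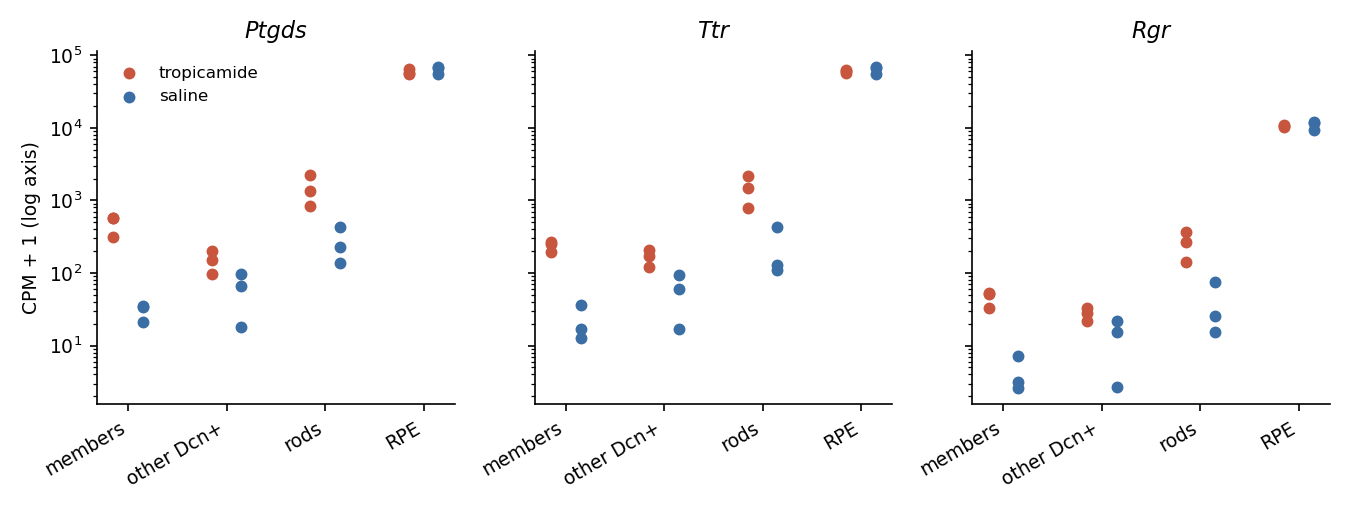
CPM plus 1 of Ptgds, Ttr and Rgr on a log axis in members, other Dcn-positive cells, rod barcodes and RPE barcodes, with tropicamide pools left of saline pools in each. The tropicamide pools lie above the saline pools in members and in rods, and the ranges overlap in RPE barcodes. In other Dcn-positive cells the tropicamide pools lie above too, by narrow gaps for Ptgds and Rgr.

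The genes of next smallest p did not pass in edgeR, and the DESeq2 Wald test called all 9 of them. Fkbp5, a cochaperone that glucocorticoids induce, stood at 215, 216 and 164 CPM in tropicamide pools, against 81.0, 87.4 and 115 CPM in saline pools (log2 fold change 1.05 ± 0.15, edgeR adjusted p = 0.0684), with no overlap. It passed without tropicamide pool 2 (0.99, edgeR adjusted p = 0.0269) and without tropicamide pool 3 (1.15, edgeR adjusted p = 0.0412). Ccn1, a matricellular protein, stood at 348, 329 and 281 CPM in tropicamide pools and 159, 207 and 185 CPM in saline pools (0.78 ± 0.12, edgeR adjusted p = 0.0821), and Rhoj, a small GTPase, at 332, 304 and 280 CPM in tropicamide pools and 145, 195 and 191 CPM in saline pools (0.77 ± 0.13, edgeR adjusted p = 0.0885). Ppp1r1a, Rpe65, Rgs6, Dapl1, Fam107a and Trpm3 were also among them, with log2 fold changes of 3.02 to 4.44 and edgeR adjusted p of 0.0531 to 0.0978. Rpe65 and Trpm3 are also RPE genes, but they differed in rod barcodes. Rpe65 stood there at 57.9 to 135.7 CPM in tropicamide pools and 6.12 to 28.97 CPM in saline pools. Trpm3 overlapped there, at 53.04 to 89.8 CPM in tropicamide pools and 71.8 to 124.7 CPM in saline pools. In tropicamide pools Trpm3 stood at 126 to 570 CPM in members and 701 to 824 CPM in RPE barcodes. The source of Trpm3 in members was not tested. Of the 9 genes, Rhoj, Ppp1r1a, Rgs6, Dapl1 and Trpm3 passed in edgeR when Edn3-only members were fitted on their own. Tropicamide pool 2 was the lowest of its group for all of these except Rhoj, for which pool 3 was lowest.

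**Figure D4:**
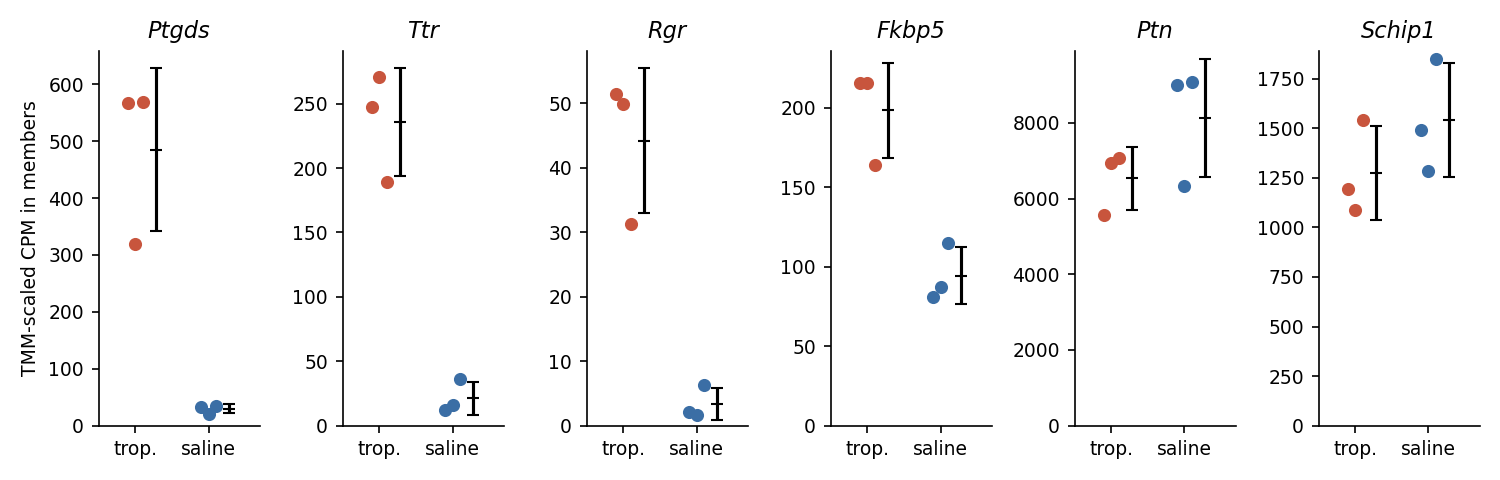
TMM-scaled CPM of Ptgds, Ttr, Rgr, Fkbp5, Ptn and Schip1 in members of the 3 tropicamide pools, left, and 3 saline pools, right, in each panel; black bars are the mean with SD. The pools do not overlap for the first 4 genes and overlap for Ptn and Schip1.

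The markers of the members showed no called difference. Ptn stood at 5569, 6949 and 7076 CPM in tropicamide pools, against 8989, 6340 and 9086 CPM in saline pools (log2 fold change -0.33 ± 0.14, edgeR adjusted p = 0.535), and in Wnt-positive members the difference was -0.07 ± 0.08. Schip1 stood at 1192, 1086 and 1539 CPM in tropicamide pools and 1491, 1285 and 1850 CPM in saline pools (-0.29 ± 0.15, edgeR adjusted p = 0.67).

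Lists of genes are given by counts, and 7.54% of all genes tested had every tropicamide pool above every saline pool and 5.61% every one below. edgeR called none of the 446 list genes tested, while the DESeq2 Wald test called 14, of which 9 were higher and 5 lower. Over all 11278 genes the DESeq2 Wald test called 62, or 0.55%. The lists were chosen with earlier results of these data known. The 9 were Fkbp5, Zbtb16, Tsc22d3, Lcn2, Glul, Il33, Dkk3, Col9a1 and Trp53inp1, and the 5 were Klf2, Wnt5a, Odc1, Ifit1 and Tfap2b. Of 24 glucocorticoid-responsive genes tested, 11 had every tropicamide pool above and 2 below, with a median log2 fold change of 0.07 against -0.0002 over all genes. Among those above were Fkbp5, Zbtb16, a transcription factor (174, 185 and 161 CPM in tropicamide pools, 74.5, 90.7 and 128 CPM in saline pools), Tsc22d3, which encodes the glucocorticoid-induced leucine zipper (371, 408 and 328 CPM in tropicamide pools, 274, 172 and 232 CPM in saline pools), and Per1, a clock gene (90.0, 92.5 and 78.7 CPM in tropicamide pools, 54.0, 58.8 and 54.2 CPM in saline pools). Of the list's 4 most abundant genes, Mt1 and Cebpd had every tropicamide pool below every saline pool without passing in edgeR, and Klf9 and Nfkbia overlapped. Mt1, a metallothionein, stood at 2685, 2603 and 2287 CPM in tropicamide pools and 2710, 3175 and 2876 CPM in saline pools, and Cebpd, a transcription factor, at 1585, 1641 and 1461 CPM in tropicamide pools and 1959, 1795 and 1841 CPM in saline pools.

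Of 27 immediate early genes, 0 had every tropicamide pool above and 9 every one below, with a median log2 fold change of -0.13. Fos, a component of AP-1, stood at 6244, 5914 and 6068 CPM in tropicamide pools and 7344, 7350 and 6827 CPM in saline pools (log2 fold change -0.26 ± 0.07, edgeR adjusted p = 0.312). Jun, its partner, stood at 3947, 3995 and 4249 CPM in tropicamide pools and 4946, 5200 and 4735 CPM in saline pools (-0.30 ± 0.08, edgeR adjusted p = 0.237), and Klf2 at 1100, 1116 and 996 CPM in tropicamide pools and 1419, 1443 and 1395 CPM in saline pools (-0.42 ± 0.08, edgeR adjusted p = 0.146). None of the 9 passed in edgeR, and Klf2 passed in the DESeq2 Wald test (adjusted p = 0.00892). The chemokine and cytokine list had 1 gene above and 5 below of 29 (median -0.19), and the interferon list 0 and 2 of 26 (median -0.13).

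Within the Wnt lists, 8 ligands tested had 0 above and 2 below, with all 8 log2 fold changes under 0 and a median of -0.26. Wnt5a stood at 210, 234 and 201 CPM in tropicamide pools and 335, 311 and 282 CPM in saline pools (-0.54 ± 0.11, edgeR adjusted p = 0.146). Of 13 Wnt target genes 1 was above and 1 below. The gene below was Axin2, at 12.9, 15.3 and 15.1 CPM in tropicamide pools against 30.2, 25.3 and 16.4 CPM in saline pools, and Lef1 differed by -0.05 ± 0.19. Kitl stood at 745, 784 and 801 CPM in tropicamide pools and 1112, 846 and 1071 CPM in saline pools (-0.39 ± 0.11, edgeR adjusted p = 0.316). Odc1, the first enzyme of polyamine synthesis, stood at 267, 286 and 322 CPM in tropicamide pools and 448, 402 and 469 CPM in saline pools (-0.61 ± 0.11, edgeR adjusted p = 0.122). Collagens, the TGF-beta and BMP genes and the heat shock genes had medians of 0.04, 0.01 and -0.13.

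**Figure D5:**
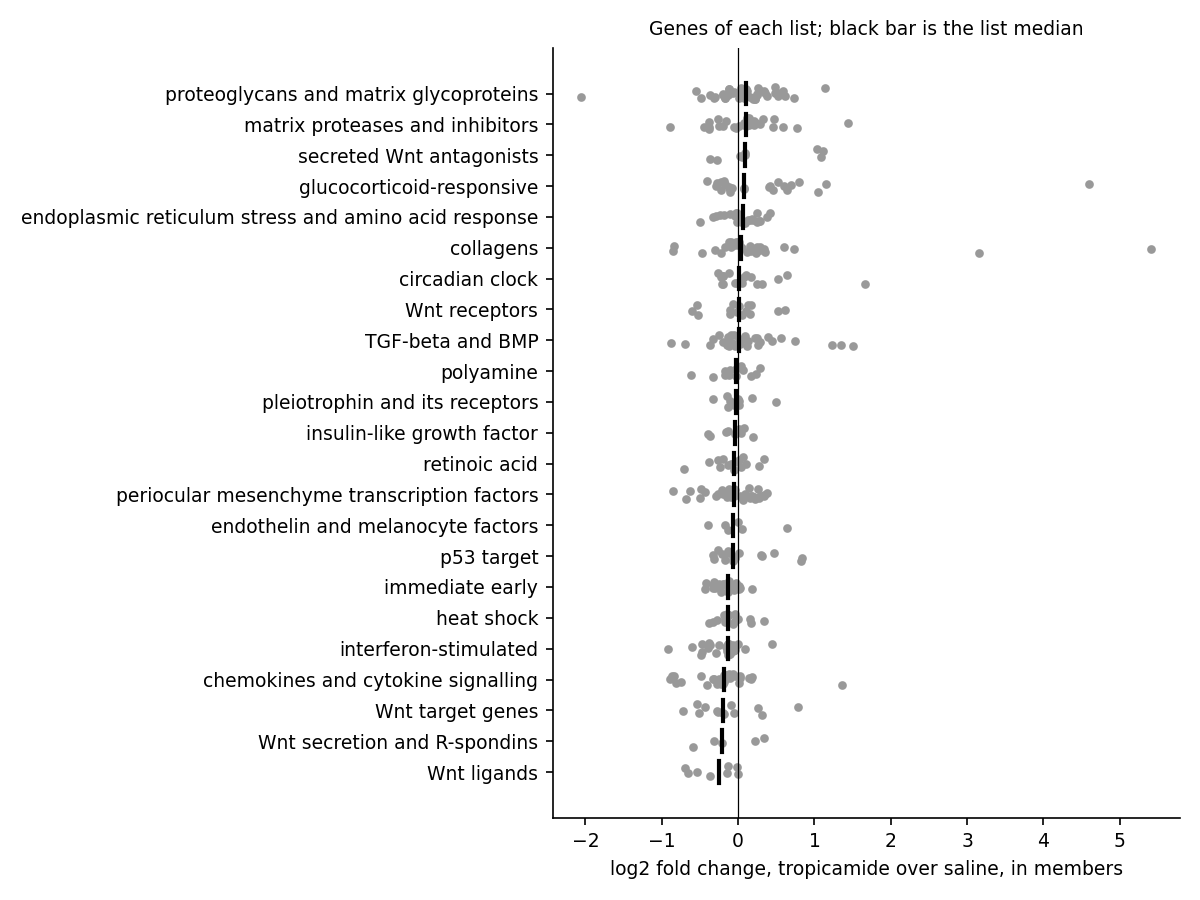
Log2 fold change, tropicamide over saline, of each tested gene in the members, by list; black bars mark list medians and the line is 0. Medians run from -0.26 for Wnt ligands to 0.11 for matrix glycoproteins. edgeR called no gene of a list while the DESeq2 Wald test called 14, against 62 of all 11278 genes (0.55%).

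Tropicamide blocks muscarinic receptors, whose transcripts were sparse in members. Chrm3 stood at 37.4, 22.3 and 38.2 CPM in tropicamide pools and 23.8, 38.4 and 35.3 CPM in saline pools, with a log2 fold change of -0.05 ± 0.25 (edgeR adjusted p = 0.99). Its level was 49.6 CPM (32.7 to 64.9) in Edn3-only members and 1.05 (0 to 25.7) in Wnt-positive members. The other 4 receptors had 0 to 15 UMIs each in all members.

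The change in Wnt-positive and Edn3-only members was compared separately, as subsets chosen after the data were seen. Of 8446 genes tested in Wnt-positive members 1 was called, or 0.0118%: Kcnma1, a potassium channel, at 5.75, 8.03 and 5.82 CPM in tropicamide pools and 77.0, 83.1 and 39.7 CPM in saline pools (log2 fold change -3.26 ± 0.38, edgeR adjusted p = 0.0137). Of 9596 tested in Edn3-only members 10 were called, or 0.104%, all higher after tropicamide. They were Ptgds, Ttr, Rhoj, Trpm3, Rgs6, Rcan2, Penk, Ppp1r1a, Dapl1 and Slc6a13. Ttr, Ptgds and Rgr did not pass in Wnt-positive members, though their tropicamide and saline pools did not overlap. Their log2 fold changes there were 3.54, 2.94 and 3.48 (edgeR adjusted p = 0.102, 0.318 and 0.426). Rgr did not pass in Edn3-only members either (3.81, edgeR adjusted p = 0.107). Whether the change differed between the subsets was not tested. In Edn3-only members the summed markers of RPE (754 to 1262 CPM in tropicamide pools, 50.9 to 109 CPM in saline pools), Muller glia (3110 to 5227 CPM in tropicamide pools, 2195 to 3065 CPM in saline pools) and ciliary and iris epithelium (168 to 279 CPM in tropicamide pools, 109 to 132 CPM in saline pools) did not overlap either, and their part in the 10 calls was not tested. The summed RPE markers in Wnt-positive members were 259 to 1386 CPM in tropicamide pools and 90.5 to 122 CPM in saline pools. Those of Muller glia and of ciliary and iris epithelium overlapped there. In Edn3-only members Penk, the proenkephalin gene, stood at 176, 390 and 400 CPM in tropicamide pools and 62.0, 95.9 and 59.0 CPM in saline pools (2.12 ± 0.32, edgeR adjusted p = 0.042). Rcan2, an inhibitor of calcineurin, stood at 74.8, 80.5 and 72.2 CPM in tropicamide pools and 35.7, 32.0 and 36.4 CPM in saline pools (1.11 ± 0.17, edgeR adjusted p = 0.042).

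Whether members changed unlike the other Dcn-positive cells was tested as an interaction. None of 13799 genes passed, or 0%, with 782 (5.67%) at an unadjusted p under 0.05 in edgeR. In the other Dcn-positive cells 0 of 13202 genes were called by edgeR, with 1462 (11.1%) at an unadjusted p under 0.05. Log2 fold changes in those cells were 0.72 for Fkbp5, 0.82 for Tsc22d3, -0.58 for Odc1 and -0.74 for Klf2. In members they were 1.05, 0.69, -0.61 and -0.42. Rhoj, Wnt5a and Axin2 were at 0.10, -0.10 and 0.33 in those cells, against 0.77, -0.54 and -0.72 in members. edgeR called the interaction for none of these genes. The smallest p belonged to Bmpr1b, a BMP receptor, at 56.7, 46.7 and 68.9 CPM in tropicamide pools and 32.4, 39.2 and 40.9 CPM in saline pools of members, and at 7.28, 7.47 and 10.5 CPM in tropicamide pools and 24.2, 19.4 and 23.1 CPM in saline pools of the other cells (difference of log2 fold changes 1.997 ± 0.225, edgeR adjusted p = 0.0502). The next were Ttr (difference 1.97 ± 0.25, edgeR adjusted p = 0.0855) and Hba-a2, a haemoglobin chain (-7.39 ± 1.02, edgeR adjusted p = 0.101). Hba-a2 stood at 5.55, 16.7 and 8.68 CPM in members of tropicamide pools and at 2.16, 715 and 0 CPM in members of saline pools, so saline pool 2 stood far above the other 5. The summed level of 5 red blood cell genes was 25.2 to 101 CPM in members of tropicamide pools and 3.1 to 5508 CPM in members of saline pools.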

How the data were processed

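Single-cell RNA sequencing libraries of posterior eye cups were analysed from the deposited matrices, which hold raw UMI counts per gene and barcode made by the authors (Cell Ranger 8.0.1, per the file headers); STAR and GRCm39 are named per the submitters' processing notes. No source used here states the annotation, intron counting or cell calling. Libraries held 30761887 to 49477707 UMIs. Members were found by the rule given above; the members, gene lists and marker lists were chosen with earlier results of these data known. Counts were summed per pool of 4 eyes, which served as replicate; the 7 rule genes were left out of the tests. edgeR 4.0.16 (R 4.3.3) with TMM, filterByExpr and Benjamini-Hochberg adjustment over all genes tested was the main test. SEs are the log2 fold change over the root of the F statistic. DESeq2 1.42.0 was an alternative. Other alternatives were at least 3 UMIs of the 3 genes, at most 10% mitochondrial UMIs, no barcodes above the 95th percentile of UMIs, doublet-scored barcodes left out (0.8% per 1000 barcodes, 2 simulated doublets per barcode, 50 neighbours), thinning to 2000 UMIs, and each pool left out. Doublets were scored but not removed otherwise, and free RNA was not removed. Intervals are exact binomial and cover counting error only. Named genes followed a rule: called genes, then smallest p up to 12, list members by level, and the 25 highest and 10 lowest level ratios at 50 CPM and a pseudocount of 1 CPM. The genes that split Wnt-positive from Edn3-only members, and genes of lists below the most abundant 4, were chosen after their values were seen. The tests were tested on simulated data with known changes. Python 3.11.15 was used.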

Additional observations from a re-analysis of the deposited data

How the results depend on the processing

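The count of 3 called genes in members became 4 with DESeq2 size factors and 4 with at least 3 UMIs of the 3 genes. It was 3 with at most 10% mitochondrial UMIs and in members with no UMI of Pax6. With no barcodes above the 95th percentile of UMIs the count was also 3, but Fkbp5 was called and Rgr was not. It moved to 394 of 22738 without the low-count filter, 62 with the DESeq2 Wald test (42 higher, 20 lower), 16 with the replicate number as a block, 1 with doublet-scored barcodes left out, 1 in Wnt-positive members and 10 in Edn3-only members. Leaving out each pool gave 2 to 105 calls, with 105 (103 higher) without tropicamide replicate 2, 6 without saline replicate 2 and 2 to 4 otherwise. The count of 0 for the difference of change became 1 with DESeq2 size factors, 209 without the low-count filter, 2 with at least 3 UMIs, 2 without members with Pax6, 6 without the deepest barcodes and 1 without doublet-scored barcodes. Leaving out each pool gave 0 to 14, with 14 without tropicamide replicate 2 and 4 without saline replicate 1. The cause of these moves was not tested.

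The numbers do not pair the pools (correlations of -0.0137, 0.0218 and -0.0002), so the replicate block, which gave 16 calls for members and exact p of 0.5 and 0.25 for the 2 shares, shares only a number. Both share differences kept their sign under every alternative, at 0.38 to 0.92 and 0.15 to 0.54 in logit when each pool was left out. The smallest p the exact test allows is 0.1 without the block and 0.25 with it, so its p-values say nothing of stability. Of 17 alternatives, Ptgds lost its call in 2, Ttr in 1 and Rgr in 5, and Fkbp5 passed in 5. Of single genes, Schip1 turned to 0.0064 in Wnt-positive members, and Chrm3 to 0.050 with at least 3 UMIs, 0.18 without tropicamide replicate 2 and 0.06 without saline replicate 2, in a range of -0.20 to 0.18 over the pools left out. Members held 927770 to 3424026 UMIs per pool, and whether depth limits the calls was not tested.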
